A study of Mus musculus with 8 samples.

Results

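The 10 genes described here are markers of liver sinusoidal endothelial cells and of endothelium at large: Stab1, Stab2, Lyve1, Clec4g, Oit3, Plvap, Pecam1, Cdh5, Kdr and Tek. They were chosen by name and found on the array through the RefSeq transcript accession of each probe, and they are 10 of 20144 named genes. Kdr and Plvap had 2 probes each and the other members had 1. Gene expression was measured on 8 one-color mouse microarrays with 1 array per group. On 5 arrays the cells were dissociated with collagenase from mouse liver of fetuses at 4 stages (E11.5 and E13.5, then E14.5 and E17.5) and of newborns on day 1 (P1). They were sorted for p75NTR and against CD45, carried by leukocytes, and Ter119, carried by red cells. Ngfr encodes p75NTR, which in liver is found on stellate cells, pericytes that store vitamin A and lie against the sinusoid wall. The sixth liver array held the adult form of these cells (adult HSC), for which the sort used vitamin A and not p75NTR. The other arrays held MEF, embryonic fibroblasts cultured from skin, and MSC, purified mesenchymal stem cells of adult bone marrow. Strain, the number of pooled animals and the age of the adults are not given in the sources used here, and the gates as described name no endothelial surface marker.

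Sinusoidal endothelial cells line the liver's capillaries. They carry open pores, take up waste molecules from blood through scavenger receptors, and receive growth signals through receptor tyrosine kinases of the VEGF and angiopoietin systems. Stab1 and Stab2 encode stabilins, scavenger receptors for modified proteins and hyaluronan, and Lyve1 encodes another hyaluronan receptor, also found on lymphatic vessels. Clec4g encodes a C-type lectin, and Oit3 a secreted protein with a zona pellucida domain. Plvap forms the diaphragms that close fenestrae and caveolae. Pecam1 and Cdh5 (VE-cadherin) hold endothelial cells together, Kdr is the main VEGF receptor, and Tek (Tie2) is the angiopoietin receptor.

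The RefSeq promoter table for build GRCm38.p6 held 5 of the 10 members. The bases upstream of the annotated gene are shown for Clec4g, Stab2 and Stab1, because Clec4g and Stab2 had close profiles over the later liver arrays and a different order at E11.5, and Stab1 is the paralog of Stab2. All of them lie on the minus strand, at chr8:3720696-3720901 for Clec4g, chr10:87008039-87008192 for Stab2 and chr14:31168652-31168891 for Stab1. Capitals mark the letters AGGAAG on either strand, a form of the site that ETS family factors of endothelium bind. The shorter core GGAA, which also occurs elsewhere in the printed bases, Stab2 included, is not marked.
Clec4g: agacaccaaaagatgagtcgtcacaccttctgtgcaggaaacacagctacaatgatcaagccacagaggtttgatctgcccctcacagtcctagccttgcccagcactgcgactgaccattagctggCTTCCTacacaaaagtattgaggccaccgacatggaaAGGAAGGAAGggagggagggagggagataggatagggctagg
Stab2: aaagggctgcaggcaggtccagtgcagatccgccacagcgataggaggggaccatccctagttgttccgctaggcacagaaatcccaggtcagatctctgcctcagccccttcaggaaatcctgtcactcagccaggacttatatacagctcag
Stab1: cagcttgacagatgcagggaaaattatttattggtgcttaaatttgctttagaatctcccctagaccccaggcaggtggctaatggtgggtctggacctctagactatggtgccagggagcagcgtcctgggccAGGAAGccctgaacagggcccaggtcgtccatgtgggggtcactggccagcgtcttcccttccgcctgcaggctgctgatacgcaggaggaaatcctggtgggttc
In windows of 250 bases before to 50 after the annotated start, AGGAAG on either strand was in 3 of the 5 member promoters (Clec4g, Stab1 and Stab2, in Stab2 only outside the bases printed) and in 35.4% of 32851 promoters of the table. The GATA letters AGATAA were in the Tek window and in 11.2% of all, and the SOX letters AACAAT were in the Tek window and in 10.7% of all. In Clec4g 2 of the 3 AGGAAG matches overlap each other. These matches describe the letters in the windows only.

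Each value below is a relative level: the log2 of the spot signal minus the log2 of the array's 75th percentile, so 0 is the 75th percentile of that array. Between 58.8% and 64.5% of spots were well above background on an array, and no spot was saturated. The slope of the labeled spike-in controls was 0.849 on the E11.5 array, the lowest of the 8. The scanner's own error for a member spot had a median of 0.151 log2 units (range 0.144 to 0.271, over the 72 values above background), which covers the reading of the spot and not the spread between animals. The 4 fetal arrays shared slide 1, and the other 4 shared slide 2, so P1 differs from the fetal arrays in slide as well as in stage. Stellate markers were used to check the labels. All 18 listed were well above background on all 6 liver-derived arrays, but so were 15 on MEF and 10 on MSC. Being above background therefore separated the liver-derived arrays from MEF only weakly. Ngfr itself stood at 4.97 on E11.5, 3.24 on E13.5, 4.75 on E14.5, 4.83 on E17.5, 4.01 on P1 and 6.42 on adult HSC. It was lower on the other arrays, at 1.37 on MEF and -5.73 on MSC. In whole-sort RNA, fewer cells of a type and less RNA per cell cannot be told apart.

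All 10 members were well above background on all 6 liver-derived arrays. Among these arrays Stab1, Stab2, Lyve1, Oit3, Cdh5, Pecam1, Tek and the dimmer Kdr probe were highest on E11.5. Clec4g and Plvap, in contrast, were lowest on E11.5 and highest on E17.5 or adult HSC. The brighter Kdr probe stood at 1.06 on E11.5 and 1.03 on P1, closer than the scanner's error for that pair (0.204 log2 units).

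**Figure D1:**
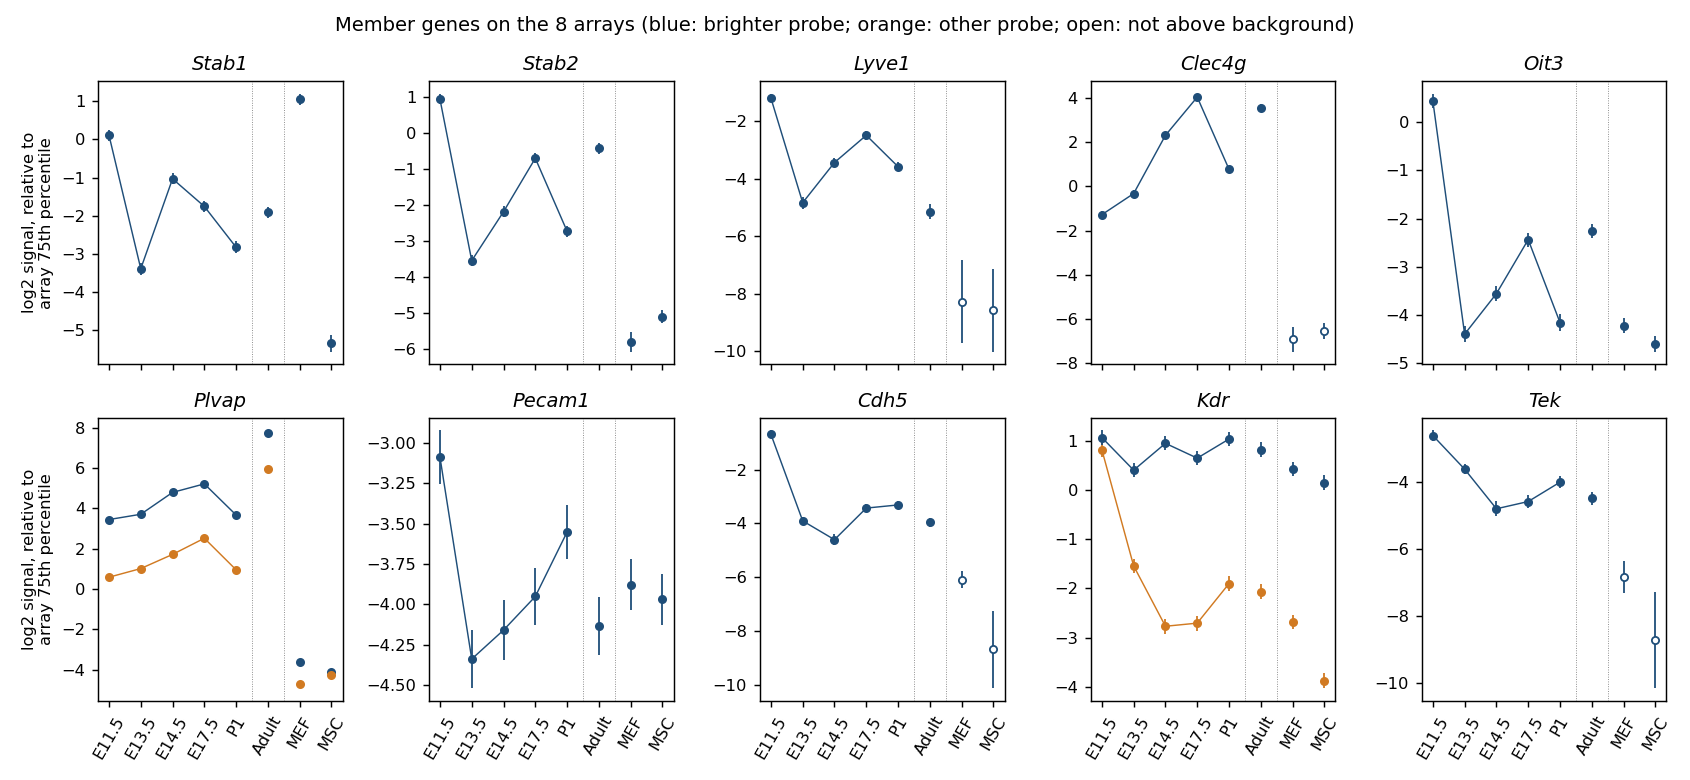
Relative level (log2 of the signal over the array's 75th percentile) of each member on the 8 arrays, 1 panel per gene with its own vertical axis; bars are the scanner's spot error, lines join the 5 p75NTR arrays, and open points are not well above background. Stab1, Stab2, Lyve1, Oit3 and Cdh5 are lower on E13.5 than on E11.5, while Clec4g and Plvap are higher on E17.5 than on E11.5.

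Among the scavenger receptors, Stab2 stood at 0.93 on E11.5, -3.54 on E13.5, -2.18 on E14.5, -0.70 on E17.5, -2.72 on P1 and -0.43 on adult HSC, against -5.79 on MEF and -5.09 on MSC. E11.5 was high, E13.5 low, and all 6 liver-derived arrays lay above both other arrays. Stab1 stood at 0.11 on E11.5, -3.39 on E13.5, -1.03 on E14.5, -1.76 on E17.5, -2.83 on P1 and -1.91 on adult HSC, against 1.05 on MEF and -5.34 on MSC. Its highest level of all was on the MEF array, so the groups overlapped. Macrophages also express Stab1, and on the MEF array 13 of 15 leukocyte and Kupffer cell markers were above background with a summed level of 22.8 times the 75th percentile, against 4 to 10 of 15 and 3.20 to 11.8 on the liver-derived arrays and 6 of 15 and 5.98 on MSC. Most of each liver-derived sum came from Itgam, which stood at 1.32 to 3.25 there and at 1.59 on MEF. Csf1r, the receptor for macrophage colony-stimulating factor, stood at 3.16 and Tyrobp, a myeloid signaling adaptor, at 2.18 on MEF; their part in the Stab1 level was not tested.

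Lyve1 stood at -1.19 on E11.5, -4.83 on E13.5, -3.43 on E14.5, -2.48 on E17.5, -3.57 on P1 and -5.14 on adult HSC, and was not well above background on MEF (-8.27) or MSC (-8.57). E11.5 was high, adult HSC and E13.5 were low, and all 6 liver-derived arrays lay above the other arrays. Oit3 stood at 0.44 on E11.5, -4.40 on E13.5, -3.56 on E14.5, -2.44 on E17.5, -4.16 on P1 and -2.25 on adult HSC, against -4.23 on MEF and -4.60 on MSC. E11.5 stood high again, and E13.5 lay between MEF and MSC, so the groups overlapped. Oit3 and Stab2 ordered the 6 liver-derived arrays in the same way.

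Clec4g, the C-type lectin, followed another course. It stood at -1.28 on E11.5, -0.32 on E13.5, 2.32 on E14.5, 4.05 on E17.5, 0.78 on P1 and 3.57 on adult HSC, and was not well above background on MEF (-6.93) or MSC (-6.55). E17.5 and adult HSC were high, E11.5 was the lowest liver-derived array, and the groups did not overlap.

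Plvap, the diaphragm protein, stood at 3.44 on E11.5, 3.70 on E13.5, 4.79 on E14.5, 5.21 on E17.5, 3.67 on P1 and 7.72 on adult HSC, against -3.64 on MEF and -4.10 on MSC. Its other probe gave 0.59, 1.01, 1.71, 2.52, 0.95 and 5.97 on the liver-derived arrays in the same order of stages, and -4.73 and -4.25 on MEF and MSC. With both probes adult HSC was high and the liver-derived and other arrays did not overlap.

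Of the junction genes, Cdh5 stood at -0.69 on E11.5, -3.91 on E13.5, -4.61 on E14.5, -3.43 on E17.5, -3.32 on P1 and -3.97 on adult HSC, and was not well above background on MEF (-6.10) or MSC (-8.69). E11.5 was high, the 5 later liver arrays lay within -4.61 to -3.32, and the groups did not overlap. Pecam1, with 1 probe, spanned less: it stood at -3.09 on E11.5, -4.34 on E13.5, -4.16 on E14.5, -3.95 on E17.5, -3.55 on P1 and -4.13 on adult HSC, against -3.88 on MEF and -3.97 on MSC. MEF and MSC lay inside the liver-derived range with this probe.

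Of the receptor tyrosine kinases, Tek stood at -2.59 on E11.5, -3.60 on E13.5, -4.79 on E14.5, -4.57 on E17.5, -3.99 on P1 and -4.48 on adult HSC, and was not well above background on MEF (-6.83) or MSC (-8.71). E11.5 was high and the groups did not overlap. The 2 Kdr probes disagreed. The brighter one, which the probe rule took, stood at 1.06 on E11.5, 0.40 on E13.5, 0.94 on E14.5, 0.64 on E17.5, 1.03 on P1 and 0.82 on adult HSC, against 0.42 on MEF and 0.15 on MSC. The dimmer one stood at 0.81 on E11.5, -1.54 on E13.5, -2.77 on E14.5, -2.71 on E17.5, -1.90 on P1 and -2.07 on adult HSC, against -2.68 on MEF and -3.87 on MSC. The brighter probe hardly moved over the arrays, whereas the dimmer one was high at E11.5 only. Both Kdr probes had overlapping groups.

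The 6 liver-derived arrays were next compared with the MEF and MSC arrays. Plvap, Clec4g and Tek were higher on the liver-derived arrays in limma's test with Benjamini-Hochberg adjusted p under 0.05 over all 16527 genes tested, and the other 7 members did not pass. With 1 array per group, this test measures a difference against the spread between stages and cell types. Over all genes tested, 0.847% were called higher and 0.732% lower, and 19.6% had an unadjusted p under 0.05. Plvap was 8.62 ± 1.08 (SE) log2 units higher, a 394-fold difference (adjusted p = 0.0135, limma, higher on 6 of 6 liver-derived arrays). Clec4g was 8.26 ± 1.42 higher (adjusted p = 0.0406, limma, 6 of 6 arrays), and since it was not above background on MEF or MSC the fold is a bound of at least 250-fold, from the lowest signal above background on those arrays. Tek was 3.77 ± 0.69 higher (adjusted p = 0.0480, limma, 6 of 6 arrays), with a bound of at least 5.48-fold. With slide as a block Plvap kept its call (9.56 log2 units, limma adjusted p = 0.041) and Clec4g and Tek lost theirs (limma adjusted p = 0.107 and 0.134). With single arrays left out, Plvap lost its call only without MSC (limma adjusted p = 0.0615). Clec4g lost it without E13.5, E14.5, E17.5, P1, MEF or MSC (limma adjusted p from 0.061 to 0.146), and Tek without any 1 of the fetal arrays, P1 or MSC (limma adjusted p from 0.050 to 0.242), where its difference without MSC was 2.82. Lyve1 was called without E11.5 (limma adjusted p = 0.049) or without adult HSC (0.033). Within slide 2, where P1 and adult HSC stand against MEF and MSC, the differences were 9.56 for Plvap, 8.91 for Clec4g and 3.54 for Tek, and 0 genes passed limma's adjusted test there (1450 had an unadjusted p under 0.05). Plvap was called under 18 of 21 alternatives, Clec4g under 10 of 20 and Tek under 7 of 20, and with the dimmer Plvap probe the difference was 6.62 (limma adjusted p = 0.0597).

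For the other members the limma differences were 4.98 ± 0.99 for Lyve1 (adjusted p = 0.0565, at least 8.10-fold), 4.07 ± 1.07 for Cdh5 (adjusted p = 0.120, at least 8.10-fold) and 4.0 ± 1.12 for Stab2 (adjusted p = 0.134). They were 1.69 ± 1.19 for Oit3 (adjusted p = 0.454), 0.53 ± 0.27 for Kdr (adjusted p = 0.320), 0.35 ± 1.57 for Stab1 (adjusted p = 0.919) and 0.05 ± 0.37 for Pecam1 (adjusted p = 0.952), again with limma. For Stab1 the 2 other arrays lay far apart: without MSC the difference was -2.85, and without MEF 3.54. In 6 of the 10 members (Stab2, Lyve1, Clec4g, Plvap, Cdh5 and Tek) all 6 liver-derived arrays lay above both MEF and MSC, against 12.8% of all genes tested.

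**Figure D2:**
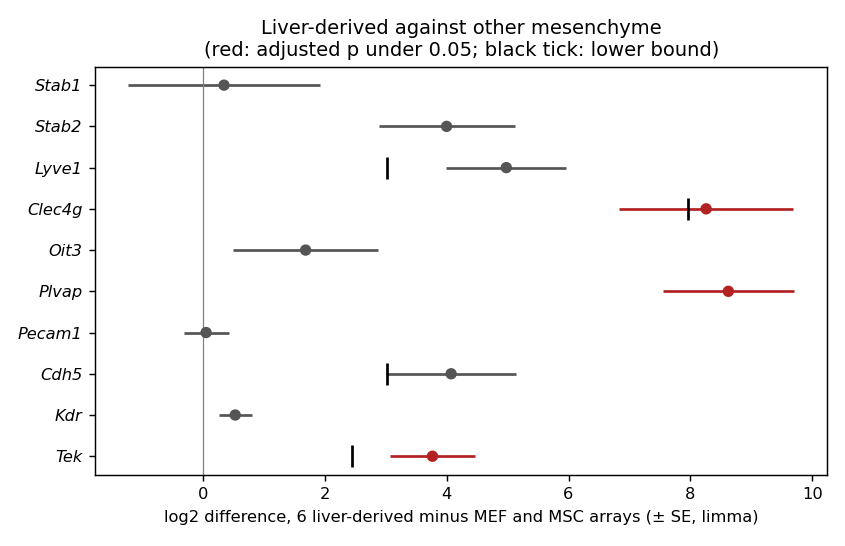
Log2 difference of each member between the mean of the 6 liver-derived arrays and the mean of the MEF and MSC arrays, with limma's standard error; red points have an adjusted p under 0.05 and black ticks are lower bounds where MEF and MSC were not above background. Plvap and Clec4g lie above 8 log2 units, and Stab1 and Pecam1 lie near 0.

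Over the order of the 5 p75NTR stages no member passed limma's test for a slope, and neither did any of the 15542 genes tested (0%; 28.1% had an unadjusted p under 0.05). The member slopes ran from -0.72 per stage for Oit3 (limma adjusted p = 0.375) to 0.85 for Clec4g (limma adjusted p = 0.318). Single steps between arrays were then set side by side. These have 1 array on each side and no test, so members at least 4-fold apart were counted against the same count over all genes.

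From E11.5 to E13.5, 5 of 10 members were at least 4-fold lower and 0 at least 4-fold higher, against 2.37% and 3.21% of all genes. By any amount 8 of 10 were lower, against 51% of genes. Oit3 was 28.7-fold lower, Stab2 22.2-fold, Lyve1 12.4-fold, Stab1 11.3-fold and Cdh5 9.33-fold. These 5 lay among the lowest 1.09% of differences over all 14438 genes. Pecam1 (2.38-fold), Tek (2.01-fold) and the brighter Kdr probe (1.58-fold) were lower by less, and the dimmer Kdr probe was 5.12-fold lower. Clec4g was 1.94-fold and Plvap 1.20-fold higher. The median over the members was -2.24 log2 units, against -0.01 over all genes. With normexp background correction 0 of these 5 stayed past 4-fold, and Lyve1 (0.68) and Cdh5 (0.29) turned. On the E13.5 array that fit met 12 spots of very bright local background, none of a member, and with those backgrounds replaced Stab1, Stab2 and Oit3 stayed past 4-fold, with Lyve1 at -1.73 and Cdh5 at -1.89.

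On the same step markers of other cells moved too. Of 12 hepatocyte and hepatoblast markers 10 were at least 4-fold higher on E13.5 (median 5.53 log2 units), among them Alb, encoding albumin, from -2.03 to 5.55. The summed level of all 12 was 219 on E11.5 and 594 on E13.5. Most of the E11.5 sum came from Dlk1, which stood at 7.68 there, 7.39 on E13.5 and 6.93 on MEF. Of the 11 erythroid markers 3 were at least 4-fold lower, the embryonic globins Hbb-y, Hbb-bh1 and Hba-x. The stellate list had 2 of 18 higher (Lrat and Dcn) and 1 lower (Rgs5), and their median was 0.24. The part of these other cells in the member differences was not tested.

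From E13.5 to E14.5, Clec4g was 6.22-fold and Stab1 5.12-fold higher, 2 of 10 members against 3.66% of genes (0 were lower, against 1.48%), and 8 of 10 members were higher by any amount against 45.1% of genes; with the dimmer Kdr probe, which was 2.34-fold lower, 7 of 10 were. Stab1 turned to -0.75 there with normexp, and not with the bright backgrounds replaced. From E14.5 to E17.5 no member passed 4-fold (2.53% of genes did upward and 4.65% downward), and the nearest was Clec4g, 3.32-fold higher; by any amount 8 of 10 were higher, against 49.5% of genes. From E17.5 to P1, which also crosses slides, Clec4g was 9.63-fold and Stab2 4.06-fold lower, against 1.2% of genes at least 4-fold lower and 3.84% higher. Oit3 (3.30-fold), Plvap (2.92-fold), Lyve1 (2.13-fold) and Stab1 (2.10-fold) were lower by less. Over the whole span from E11.5 to P1, also across slides, Oit3, Stab2, Stab1, Cdh5 and Lyve1 were 24.3-fold, 12.6-fold, 7.65-fold, 6.18-fold and 5.22-fold lower (4.22% of genes were at least 4-fold lower), and Clec4g was 4.16-fold higher (9.7% of genes were). Of these 6 members, 2 (Stab2 and Oit3) stayed past 4-fold with normexp, as they did with bright backgrounds replaced, and Stab2 was -1.26 log2 units from E17.5 to P1 with either. The dimmer Kdr probe was 6.56-fold lower from E11.5 to P1.

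Markers of other cells moved on these steps as well. From E13.5 to E14.5, 5 of 12 hepatocyte markers were at least 4-fold higher and 6 of 8 mesothelial markers lower (5 at the bound for levels below background). From E14.5 to E17.5, 11 of 12 hepatocyte markers were at least 4-fold lower and 4 of 11 erythroid markers higher. From E17.5 to P1, 6 of 10 erythroid markers were at least 4-fold lower (median -2.34 log2 units) and 4 of 6 mesothelial markers higher (3 at the bound). From E11.5 to P1, 8 of 12 hepatocyte markers were at least 4-fold higher. Their part in the member differences was not tested.

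Between P1 and adult HSC, both on slide 2 but sorted by different markers, Plvap was 16.6-fold, Clec4g 6.91-fold and Stab2 4.91-fold higher on adult HSC, 3 of 10 members against 5.24% of genes, and 0 members were at least 4-fold lower against 15.9% of genes. The dimmer Plvap probe gave 32.5-fold. Oit3 was 3.76-fold higher, and Lyve1 2.97-fold lower. Stab1 was 1.89-fold higher. The junction and kinase genes differed by little: Cdh5 was -0.65, Pecam1 -0.58, Tek -0.49 and Kdr -0.21 log2 units, and with median scaling, which moved the median of all genes to 0.66, they were 0.06, 0.13, 0.22 and 0.50. Between these same arrays 10 of 18 stellate markers were at least 4-fold higher on adult HSC (median 2.12 log2 units) and 10 of 12 hepatocyte markers at least 4-fold lower, and their part in the member differences was not tested.

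**Figure D3:**
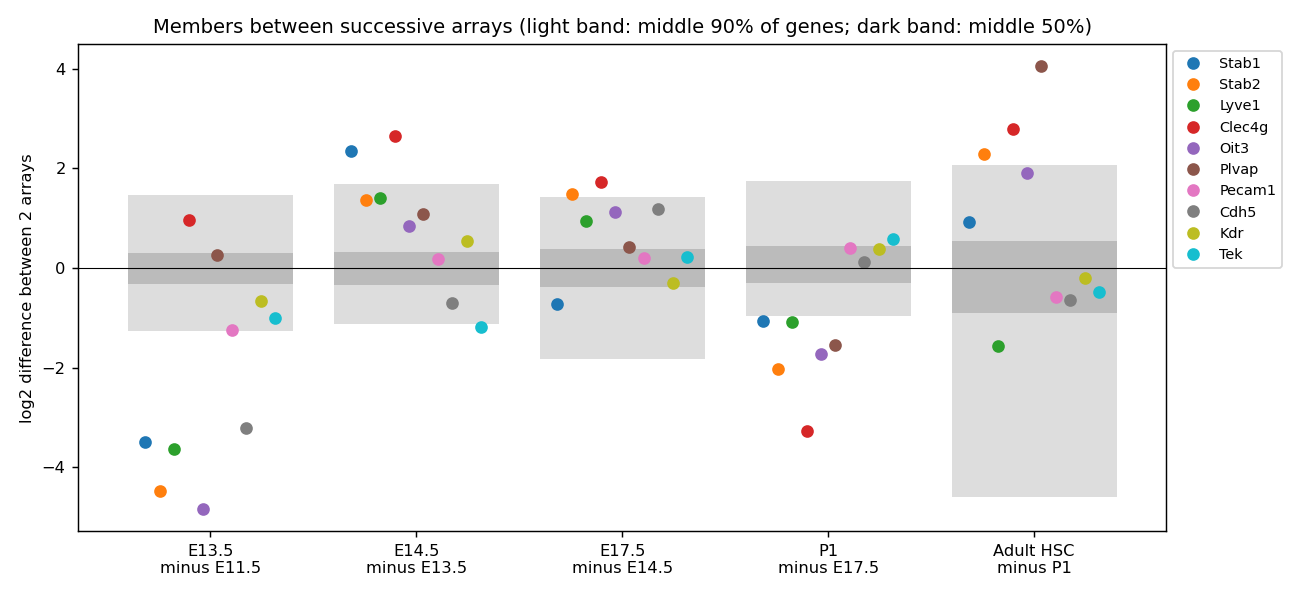
Log2 difference of each member between successive liver-derived arrays (colored points), over the middle 90% (light band) and middle 50% (dark band) of all genes above background on either array. Stab1, Stab2, Lyve1, Oit3 and Cdh5 lie below the bands from E11.5 to E13.5, and Plvap, Clec4g and Stab2 lie above them from P1 to adult HSC. From E17.5 to P1, Clec4g, Stab2, Oit3, Plvap, Lyve1 and Stab1 lie below them.

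Whether the members moved together was described by the Pearson correlation of each pair over the 6 liver-derived arrays. The points are arrays of different stages, with the age, slide and sort of an array shared by all genes, so these values carry no p. Over the 45 pairs the mean r was 0.312 (median 0.480), 33 pairs (73.3%) were above 0 and 6 (13.3%) were at least 0.8. Over all pairs of the 11907 genes above background on all 6 arrays the mean was 0.0125, 50.8% were above 0 and 8.97% at least 0.8. Without the E11.5 array the members' mean r was 0.149, and without the E13.5 array 0.202.

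The members did not form 1 block. Stab2 and Oit3 had the highest r, 0.958, and 0.991 without E11.5. Stab1, Stab2, Lyve1 and Oit3, grouped after their values were seen, had a mean r of 0.779, which was 0.492 without E11.5. Cdh5 had an r of 0.903 with Pecam1 and 0.872 with Tek, which were 0.680 and 0.406 without E11.5. The dimmer Kdr probe had an r of 0.968 with Tek, and 0.925 without E11.5, while the brighter probe had 0.171 with Tek. Clec4g had an r of 0.790 with Plvap and -0.885 with Tek, the lowest of all pairs.

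Leaving out the E11.5 array also joined pairs that it had kept apart. Stab2 and Clec4g had an r of 0.085 over 6 arrays and 0.969 over the other 5, Oit3 and Clec4g -0.192 and 0.962, Oit3 and Plvap 0.047 and 0.874, and Stab2 and Plvap 0.283 and 0.859. Stab1 and Tek went from 0.288 to -0.989. From E13.5 to adult HSC, then, Stab2, Oit3 and Clec4g were low on E13.5 and P1 and high on E17.5 and adult HSC, whereas at E11.5 Stab2 and Oit3 had their highest level and Clec4g its lowest.

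**Figure D4:**
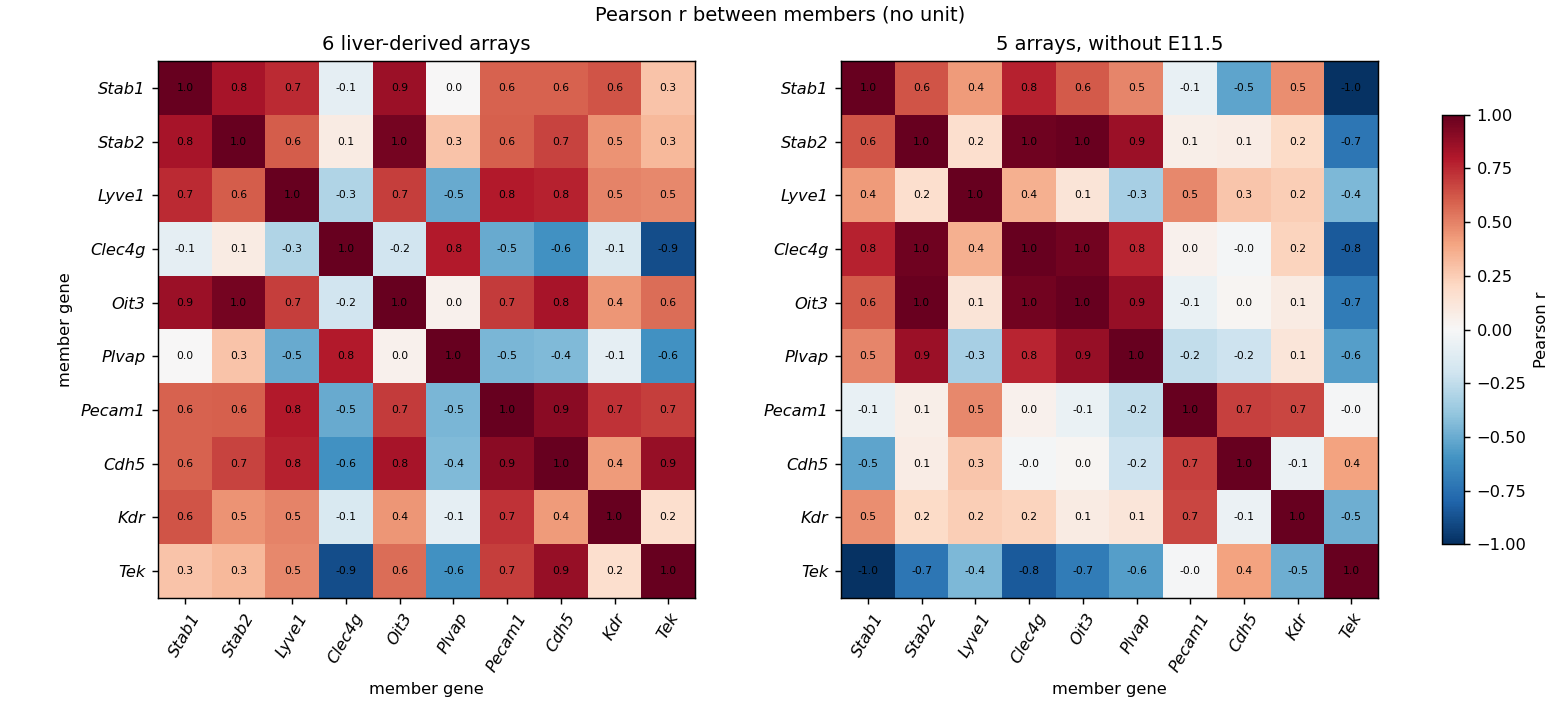
Pearson r between each pair of members over the 6 liver-derived arrays (left) and over 5 of them without E11.5 (right), from -1 in blue to 1 in red. Stab2 and Clec4g go from 0.085 to 0.969, and Cdh5 and Tek from 0.872 to 0.406.

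The genes with profiles most like each member were taken from 2957 genes that spanned at least 2 log2 units over the 6 arrays. For Stab2 these were Fam167b (r = 0.961), Myl3 (0.955) and Robo4 (0.912), and for Oit3 Myl3 (0.949), Fam167b (0.931) and Icam2 (0.911). Robo4 is an endothelial guidance receptor and Icam2 an endothelial adhesion molecule, while Myl3 encodes a myosin light chain of heart and slow muscle and stood at 2.33 on E11.5 and -5.47 on E13.5. Stab1 and Lyve1 shared Ccm2l as nearest gene (0.846 and 0.873), a relative of a cerebral cavernous malformation protein. Cdh5 was closest to Mmrn2 (0.979), an endothelial matrix protein, and the genes near Pecam1 included Slc16a7 (0.988) and Nos3 (0.986), the latter being endothelial nitric oxide synthase. Tek was closest to Hoxb6 (0.968), Clec4g to Lifr (0.980), Plvap to Ccdc160 (0.998) and the brighter Kdr probe to Pigz (0.944).

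Plvap and Stab2 also differed in how many genes followed them. An r of at least 0.8 over the 6 arrays was reached by 1678 genes with Plvap (14.1% of 11897) and by 92 with Stab2 (0.773%). Among the 18 stellate markers 10 were at 0.8 or more with Plvap (median r 0.82), among them Ngfr, Lrat, Reln and Colec11, and 0 with Stab2 (median r 0.17). Of the 20 other pan-endothelial genes above background on all 6 arrays, Robo4, Icam2 and Ushbp1 reached 0.8 with Stab2 (list median 0.42). Eng and Clec14a, 2 of 20, did with Plvap, against 14.1% of all genes (list median -0.03). Of the 7 other sinusoidal genes, 3 reached it with Plvap (Ehd3, Rspo3 and Bmp2) and 0 with Stab2, with list medians of 0.74 and 0.31. The list of ligands and co-receptors of Kdr and Tek had 11 such genes. Its Gdf2 and Bmp10, BMP ligands that belong to neither system, reached it with Plvap, and Angpt1 with Stab2. The median r of that list was -0.56 with Plvap and -0.02 with Stab2.

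The same comparisons were made for the other gene lists. Of 13 other sinusoidal genes tested between the liver-derived and other arrays, 1 was called higher, Gpr182, an endothelial receptor that binds chemokines (limma adjusted p = 0.00196; not above background on MEF or MSC, so at least 152.5-fold). Of 25 other pan-endothelial genes 3 were called higher with limma and 0 lower: Icam2 (4.87, adjusted p = 0.032), Ramp2, an adrenomedullin receptor subunit (4.47, adjusted p = 0.043), and Egfl7, a secreted vessel protein (2.57, adjusted p = 0.043). The median difference of that list was 3.56 log2 units, against 0.02 over all genes tested. Of 13 endothelial transcription factors 0 were called, and of 11 arterial, lymphatic and continuous capillary genes 1 was (Reln, also a stellate marker). The list of ligands and co-receptors of Kdr and Tek held 13 genes, among them the BMP ligands Gdf2 and Bmp10, which belong to neither system. Of these 13, Vegfc (2.03, limma adjusted p = 0.044), Gdf2 (limma adjusted p = 0.000193) and Bmp10 (limma adjusted p = 0.028) were called higher. Gdf2 and Bmp10 were not above background on MEF or MSC, and their bounds were at least 3245-fold and at least 28.4-fold. Which cells of the sorts express these ligands was not tested. In the stellate list 6 of 18 were called (median difference 6.72 log2 units). None were called in the hepatocyte, erythroid, leukocyte, megakaryocyte and mesothelial lists. In that order their median differences were 8.11, 3.32, -0.91, 2.81 and 1.78 log2 units, so the absence of calls does not mean that levels were alike. With slide as a block Gpr182 and Gdf2 kept their calls, with limma adjusted p = 0.016 and 0.0054, and Icam2, Ramp2, Egfl7, Vegfc and Bmp10 lost theirs (limma adjusted p from 0.084 to 0.121). For the slope over the stages 0 genes of every list passed.

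From E11.5 to E13.5, 12 of 24 other pan-endothelial genes were at least 4-fold lower, or 11 with levels below background set to the lowest signal above it, and 0 were higher. The shares over all genes were 2.37% lower and 3.21% higher. The median of the list was -2.14 log2 units, or -1.78 at that bound. Robo4 was 54.8-fold lower (0.70 on E11.5, -5.07 on E13.5) and Cldn5, a tight junction protein, 29.1-fold lower (0.27 and -4.59). Tie1, the partner receptor of Tek, was at least 18.5-fold lower and the sialomucin Emcn at least 9.86-fold lower, both not above background on E13.5. Of 12 other sinusoidal genes 3 were at least 4-fold lower, Mrc1 (at least 21.1-fold), Flt4 (at least 4.01-fold) and Dnase1l3, for which the bound was 3.23-fold, so that 2 stayed past 4-fold at their bound. Of 13 endothelial transcription factors Sox18 was 7.33-fold lower and Sox7 at least 6.94-fold lower, and Sox17 had a bound of 3.39-fold. Later the pan-endothelial list went the other way. From E14.5 to E17.5, 7 of 23 of its genes were at least 4-fold higher (6 at the bound) and 0 lower. Of all genes 2.53% were higher and 4.65% lower by that much. Over E11.5 to P1, 4 of 25 were at least 4-fold higher and 5 lower, with a median of -0.13 log2 units. Of all genes 9.7% and 4.22% were. Between P1 and adult HSC, 7 of 12 other sinusoidal genes were at least 4-fold higher and 2 lower, or 1 lower at the bound, since Wnt2 was not above background on adult HSC and had a bound of 1.73-fold. Among other pan-endothelial genes 2 of 25 were higher and 8 lower. The shares over all genes on this step were 5.24% higher and 15.9% lower.

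**Figure D5:**
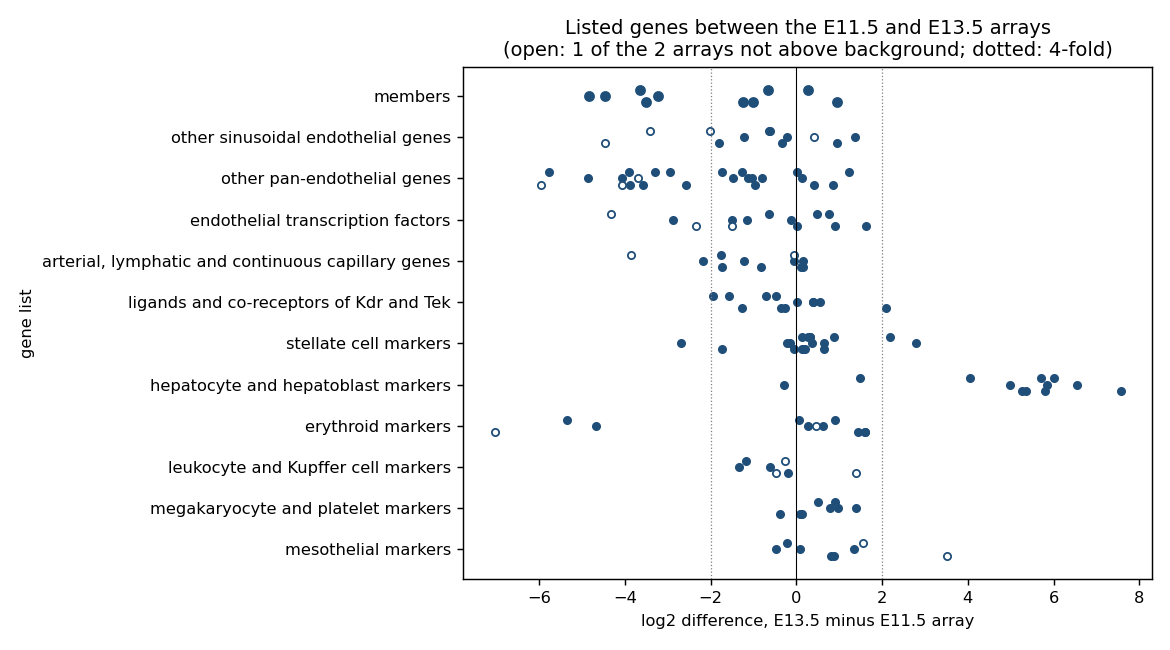
Log2 difference between the E13.5 and E11.5 arrays for the members and for each gene list; open points have 1 array not above background, and dotted lines mark 4-fold. Among the members 5 of 10 and among other pan-endothelial genes 12 of 24 lie left of the lower line, while 10 of 12 hepatocyte markers lie right of the upper one.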

How the data were processed

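The intensity values are spot signals, background-subtracted and spatially detrended by Agilent Feature Extraction 11.5.1.1, per the file headers, and not scaled from array to array. The authors' deposited log2 table follows these signals over each array's 75th percentile: after a median offset of -0.150 to -0.103 per array, 93.2% to 100% of probes matched within 0.02, with column medians of -4.48 to -3.55. It served as an alternative. Control spots and outlier spots were dropped, replicate spots averaged, and a probe counted as above background where at least 0.5 of its spots were. RefSeq accessions named 67.4% of 39429 probes, and the probe with the highest mean was taken per gene. Of the arrays compared, 1 or more had to hold a gene above background for it to enter the test, made with limma 3.58.1 in R 4.3.3 (lmFit, eBayes, Benjamini-Hochberg over all genes), a procedure tested on simulated data. With 1 array per group, p-values measure only the spread between stages or cell types. Pairs of arrays have no test. The alternative normexp correction (offset 50) used median spot signals.

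The members and lists were chosen with earlier results of these data known. All members are named; other genes are list members called by limma, up to 4 per list with the largest difference in a comparison described, and 1 or more of the 3 most like each member. Others (Csf1r, Tyrobp, Itgam, Dlk1, Lrat, Dcn, Rgs5, Ngfr, Wnt2, the Sox genes, and those counted as following Plvap or Stab2) were named after their values were seen. Listed Ccl21a is not analysed here. Not every gene this rule allows is reported here.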

Additional observations from a re-analysis of the deposited data

Results flagged for a closer look

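Cdh5 stood at -0.69 (log2 relative level) on the E11.5 array, far from the other liver-derived arrays: its gap to the nearest of them was 0.67 of the whole range of the 6 arrays, above Dixon's 95% critical value of 0.625. Chance alone passes that value in about 1 in 20 groups, 20 such gaps (the highest and lowest array of 10 members) were examined, and the 6 arrays are of different stages, so they are not replicates.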

How the results depend on the processing

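No paired analysis was possible because each group has 1 array and the labels give no replicate numbers. The count of members called between liver-derived and other arrays was 3 in the main setting. It was 1 with normexp, 1 with normexp after replacing local backgrounds over 1000, 1 with a filter on every array and 1 with slide as a block, and 0 within slide 2. Leaving out single arrays gave 0 (without MSC) to 4, and 1 (Plvap) without E13.5, E14.5, E17.5 or P1. The slope count was 0 under every alternative run. Normexp took the E13.5 background from 12 spots of very bright local background, none of them a member probe, and its fitted background mean there was -952, against -4.28 after replacement; that replacement and the dimmer probes were alternatives chosen after seeing the data. Members at least 4-fold apart from E11.5 to E13.5 numbered 5, but 0 with normexp and 3 with the replacement; from E13.5 to E14.5 they numbered 2, then 4 and 1; from E17.5 to P1 2, then 1 and 1; from E11.5 to P1 6, then 2 and 2. At least 2-fold apart were 6 members from E13.5 to E14.5 (Tek lower), 4 from E14.5 to E17.5, 6 from E17.5 to P1 (all lower) and 5 from P1 to adult HSC (Lyve1 lower). No share of all genes is given at 2-fold. The middle 50% of all genes ran from -0.35 to 0.32, -0.39 to 0.38, -0.31 to 0.44 and -0.90 to 0.55 log2 units on these steps. Normexp turned Lyve1 (0.68) and Cdh5 (0.29) from E11.5 to E13.5 and Stab1 (-0.75) from E13.5 to E14.5, none of which turned with the replacement. The liver difference of Pecam1 turned with median scaling (-0.31), quantile normalization (-0.28), without E11.5 (-0.10) and without P1 (-0.011; range -0.10 to 0.15 with 1 array left out), and that of Stab1 with median scaling (-0.0195), the replacement (-0.31), slide as a block (-0.22), within slide 2 (-0.22), without E11.5 (-0.03) and without MSC (-2.85; range -2.85 to 3.54); neither was called. Median scaling moved the median of all genes to -0.34 between liver-derived and other arrays and to 0.66 between P1 and adult HSC. The members' mean r of 0.312 was 0.204 by rank, 0.113 with normexp, 0.402 with the replacement and 0.149 to 0.350 with 1 array left out. Other causes were not tested. With 1 array per group, the number of arrays limits the precision.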
